A study of Mus musculus with 8 samples.

Results

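The 9 transcription factors that set and keep the identity of intestinal epithelium were followed in wild-type (WT) and cancer cells of small intestinal organoids: Cdx1, Cdx2, Hnf4a, Hnf4g, Gata4, Gata6, Klf4, Klf5 and Elf3. They were chosen by symbol, and all 9 have a row among the 13420 genes of the read count table. Cdx1 had almost no reads in the cancer cells and Hnf4a was several-fold lower there, both in pure and in mixed cultures. Gata4 passed the test as lower in cancer cells in pure cultures only, and Cdx2 and Gata6 in mixed cultures only. Each of these calls was lost in some fits that left out a library. For none of these factors did the difference between pure and mixed cultures pass the test. Elf3, Klf5 and Klf4 did not pass the test in any comparison. None of the factors passed the test for a change on mixing with the other cell type.

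Organoids are self-organizing epithelial cultures that keep crypt-like and villus-like cells. The WT organoids (transgenic mTmG, C57BL/6) came from Rosa26-CreERT2 mice whose cells carry a membrane-bound tdTomato. The cancer organoids, which express Dendra2, came from the small intestine of Villin-CreERT2 mice, C57BL/6 (F6), shortly after tamoxifen. These mice carry floxed Apc on both copies, a floxed and a mutant copy of Trp53, and a further engineered allele that is not named here. Villin-CreERT2 is active in the intestinal epithelium once tamoxifen is given, where it removes Apc and leaves a mutant copy of Trp53 beside a deleted one. Cultures were kept pure or mixed at 2 WT to 1 cancer, in the same medium, and live cells were sorted by color on day 3 after mixing. Each of the 4 groups has 2 libraries, named here by the well in the label: A01 and A05 are pure WT, A02 and A06 mixed WT, A03 and A07 pure cancer, and A04 and A08 mixed cancer cells. Nothing says whether the 2 libraries of a group came from separate cultures or animals, so the p-values measure the spread between these libraries, which may be technical. Genotype, reporter and the origin of the line cannot be told apart in any comparison of cancer with WT cells.

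The CDX homeobox factors specify the intestine along the gut tube and switch on absorptive and mucin genes. HNF4 nuclear receptors bind the same enhancers and drive enterocyte metabolism, and GATA factors set the jejunal program, with Gata4 also restraining ileal genes. Klf4 is linked to cell-cycle exit and goblet cells, Klf5 to dividing crypt cells, and Elf3 is an epithelial ETS factor that acts in enterocyte and goblet cell differentiation. Apc restrains Wnt signaling, which keeps crypt cells dividing, so its loss is a usual first step of intestinal tumors.

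The CEL-Seq libraries hold reads from the 3' ends of transcripts, and in such bulk samples fewer cells of a type and less RNA per cell cannot be told apart. Depth ranged from 73109 reads on genes in A02 to 4733121 in A04, a 64.7-fold range, and the other libraries had between 201137 and 1905693. Values below are normalized CPM, the reads of a gene scaled to a common library total with TMM factors. In A02 a single read is 13.1 CPM, so that library carries little weight for the lower members. The upper 95% limit that a count of 0 allows, 3 reads over the pooled libraries of a group, is 1.04 CPM for pure and 5.80 CPM for mixed WT cells, and 5.72 CPM for pure and 0.566 CPM for mixed cancer cells. Reads include amplification copies, so such limits and all counting intervals cover counting error of reads only. Keratins and Epcam, Cdh1, Cldn7 and Vil1, the 7 epithelial markers looked at, were present in all 8 libraries, with a summed level of 4739 to 16058 CPM. Of 10 stromal and endothelial markers only Acta2 and Col1a1 had a row, at most 5.25 CPM together in a library. Of 6 immune markers, Cd68 and Cd52 had a row, and Ptprc, Cd3e, Cd79a and Lyz2 did not. Their sum was at most 2.27 CPM in the WT libraries, and between 0 in A03 and 68.8 CPM in A07 in the cancer libraries, all of it from Cd68 there, and the part of such cells in the results below was not tested.

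The promoters of 2 members that fell in cancer cells, Cdx2 and Hnf4a, are shown with that of Elf3, which did not pass the test, because a reader can compare what lies before genes that behaved differently. Each window runs from 250 bases before to 50 bases after an annotated start (RefSeq, GRCm38.p6), 5′ to 3′ on the gene's strand, with Hnf4a listed with 2 starts. Capitals mark AGATAA, the motif of GATA factors, in the first Hnf4a window, and the other windows held none of the motifs searched.
Cdx2, chr5:147307200-147307499, minus strand: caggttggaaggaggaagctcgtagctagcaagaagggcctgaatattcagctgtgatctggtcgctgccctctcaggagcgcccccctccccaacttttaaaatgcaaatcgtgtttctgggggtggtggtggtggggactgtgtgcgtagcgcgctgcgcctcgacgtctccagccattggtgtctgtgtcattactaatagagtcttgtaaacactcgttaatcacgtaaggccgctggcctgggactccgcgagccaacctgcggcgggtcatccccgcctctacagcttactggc
Hnf4a, first start, chr2:163506607-163506906, plus strand: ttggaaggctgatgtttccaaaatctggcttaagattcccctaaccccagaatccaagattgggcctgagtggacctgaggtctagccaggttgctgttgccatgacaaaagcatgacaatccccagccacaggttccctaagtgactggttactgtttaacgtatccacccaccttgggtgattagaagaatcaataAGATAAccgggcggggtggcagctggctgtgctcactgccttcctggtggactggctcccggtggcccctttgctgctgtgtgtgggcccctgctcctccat
Hnf4a, second start, chr2:163546905-163547204, plus strand: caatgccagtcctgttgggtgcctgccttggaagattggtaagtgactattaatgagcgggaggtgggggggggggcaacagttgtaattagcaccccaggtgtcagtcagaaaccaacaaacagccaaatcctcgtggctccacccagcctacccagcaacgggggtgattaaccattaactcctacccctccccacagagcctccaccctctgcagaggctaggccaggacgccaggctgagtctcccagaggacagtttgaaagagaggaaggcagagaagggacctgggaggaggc
Elf3, chr1:135258423-135258722, minus strand: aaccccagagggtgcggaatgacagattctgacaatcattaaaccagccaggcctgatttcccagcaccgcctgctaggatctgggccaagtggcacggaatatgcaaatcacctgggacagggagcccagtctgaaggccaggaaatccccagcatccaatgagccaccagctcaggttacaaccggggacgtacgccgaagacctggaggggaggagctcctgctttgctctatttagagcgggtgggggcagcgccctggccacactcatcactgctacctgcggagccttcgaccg
The motifs searched on both strands were TTTATG for CDX factors, CAAAGTCCA for HNF4 factors, AGATAA for GATA factors, GGGTGTGG for KLF factors, GGAAGT for ETS factors and CTTTGAT for TCF/LEF factors. The first Hnf4a window held the letters for GATA factors 52 bases before the start, and these letters occur in 11.18% of the 32851 mouse promoter windows of the same length. The CDX letters occur in 11.85%, the HNF4 letters in 0.4749%, the KLF letters in 3.562%, the ETS letters in 23.77% and the TCF/LEF letters in 3.729% of all windows, and none of these 5 was found in the windows printed or in that of Klf4. Both Hnf4a starts feed transcripts with the same 3' end, so the reads cannot tell them apart.

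The comparison of cancer with WT cells asks how far the cancer cells carry the same factors as their WT neighbors. The members Cdx1, Cdx2, Hnf4a, Hnf4g, Gata4 and Gata6, 6 in all, were lower in all 4 cancer libraries than in any of the 4 WT libraries, and Klf4 was higher in all 4. Klf5 and Elf3 overlapped. For Cdx1, Hnf4g, Gata6 and Klf4 this order is limited by depth. The lowest WT level was 6.80 CPM for Hnf4g and 13.1 CPM, from 1 read in A02, for Cdx1 and Gata6. Against this, 3 reads are 15.7 CPM in A03, 8.98 in A07 and 15.6 in A08. Klf4 had 0 reads in A02, where 3 reads are 39.3 CPM, above its highest cancer level of 31.1 CPM. Of the 5264 genes that passed the filter on low counts, 8.11% had all 4 cancer libraries below the WT libraries and 8.24% had all 4 above. Of the 9 members 8 passed that filter and were tested, and 5 of them were among the 6 that lay below. Hnf4g did not pass it. Cdx1 and Gata6 had at most 4 reads in any cancer library. They passed the filter through WT libraries alone, so they had little room to rise in cancer cells. In pure cultures 3 of 8 tested members fell in cancer cells and none rose at an adjusted p under 0.05 (edgeR), where 9.95% of all tested genes were called, 4.84% that fell and 5.11% that rose. In mixed cultures 4 of 8 fell and none rose, where 6.42% of all tested genes were called, 4.41% that fell and 2.01% that rose. The median log2 fold change of the 8 members was -2.64 in pure and -2.50 in mixed cultures, and that of all tested genes was -0.05 and 0.12.

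**Figure D1:**
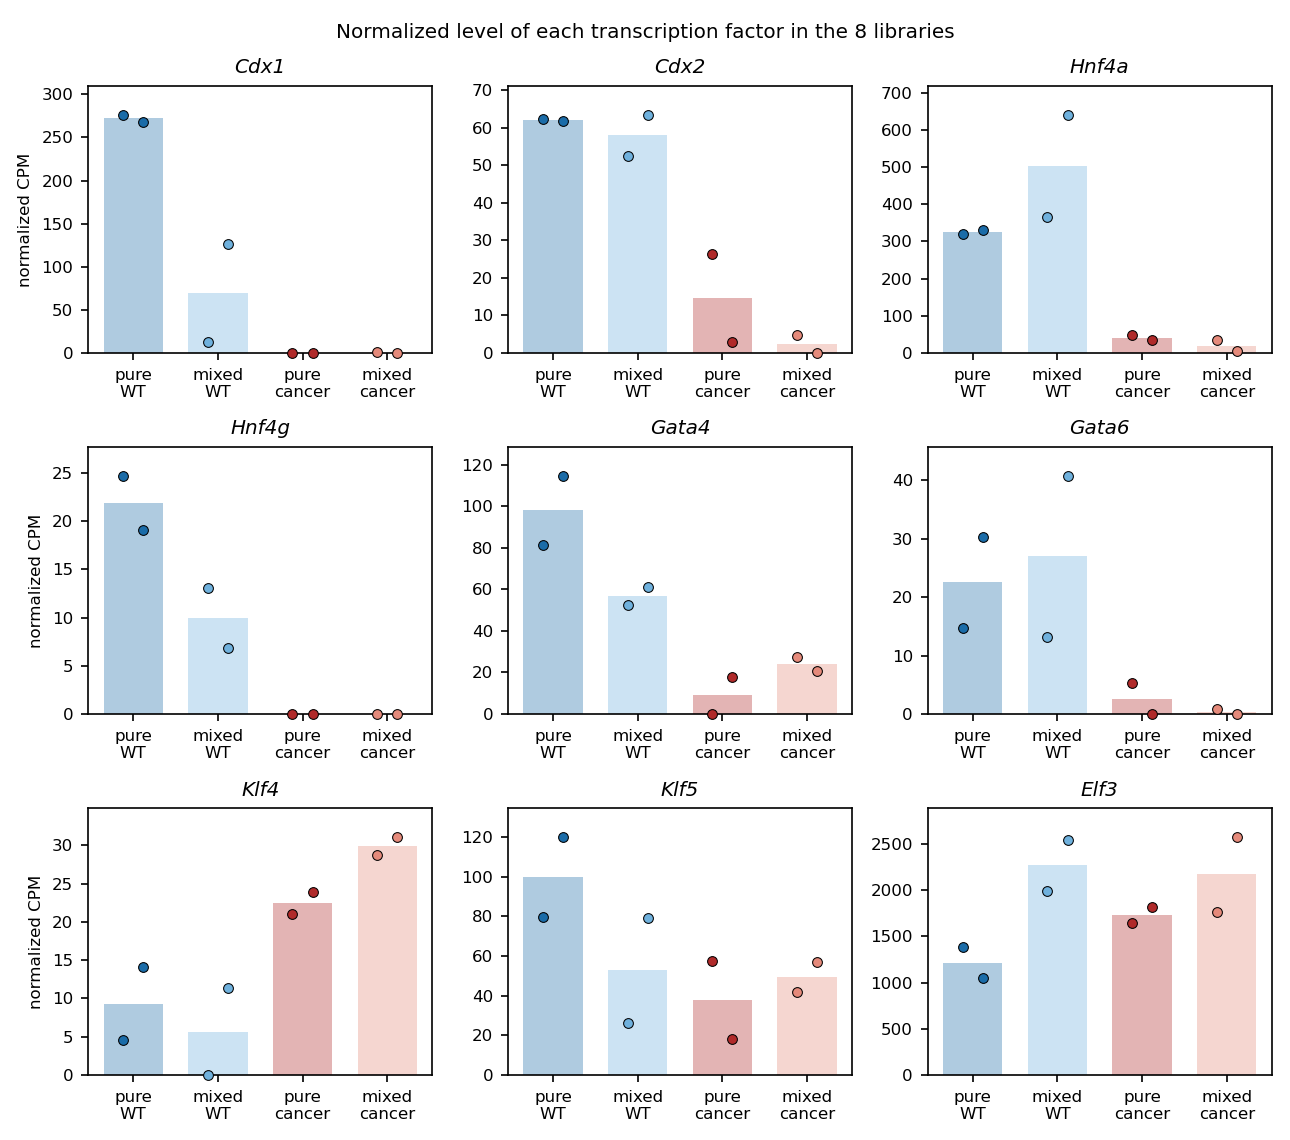
Normalized CPM of each factor (linear axis from 0) in the 4 groups. Points are the 2 libraries of a group, left point the lower-numbered well, and bars their mean. In the top panels and the middle row the red cancer points lie below every blue WT point, Klf4 shows the reverse order, and Klf5 and Elf3 overlap.

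Cdx1 (chromosome 18 of GRCm38, 61018862 to 61036199, minus strand), the CDX factor of the crypt and lower villus, had 276.4 CPM in A01 and 268.1 CPM in A05. It had 0 reads in both pure cancer libraries. Mixed WT cells had 13.1 CPM in A02, from 1 read, and 126.9 CPM in A06, and mixed cancer cells had 0.783 CPM in A04, from 4 reads, and 0 reads in A08. Apart from A02, the WT libraries thus lay far above the cancer libraries, and the pure WT libraries were the highest of all. The level of A02 is below that of 3 reads in A03 (15.7 CPM) and A08 (15.6 CPM), so their counts of 0 cannot be told from it. The level in pure cancer cells was at least 47.4-fold lower than the 271 CPM of the pooled pure WT libraries, with 3 reads over the pooled pure cancer libraries as the limit, and at least 38.5-fold lower by the exact 95% counting interval (adjusted p = 3.79e-05, edgeR). In mixed cultures the log2 fold change was -6.66 ± 1.00 (SE, adjusted p = 8.58e-05, edgeR). This call depended on the deeper library of each group, with an adjusted p of 0.0628 without A04 and 0.288 without A06. In mixed against pure WT cells the log2 fold change was -1.67 (95% interval -3.01 to -0.33), and it did not pass the test over all genes (adjusted p = 0.352, edgeR).

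Cdx2 (chromosome 5, 147300805 to 147307270, minus strand), whose loss in the adult gut lets gastric genes appear, had nearly equal levels in the 4 WT libraries. These were 62.2 CPM in A01, 61.8 in A05, 52.4 in A02 and 63.4 in A06. Pure cancer cells had 26.2 CPM in A03, from 5 reads, and 2.99 CPM in A07, from 1 read, while mixed cancer cells had 4.89 CPM in A04, from 25 reads, and 0 in A08. All cancer libraries lay below all WT libraries, with A03 the nearest to them. In mixed cultures Cdx2 fell in cancer cells, with a log2 fold change of -3.80 ± 0.96 (SE, adjusted p = 0.0147, edgeR), and the adjusted p was 0.129 without A04, 0.151 without A06 and 0.0589 without A08. In pure cultures the log2 fold change of -2.29 ± 0.93 did not pass the test (adjusted p = 0.143, edgeR), and it passed without A03 (-4.33, adjusted p = 0.0391, edgeR) and on barcode counts (adjusted p = 0.0103, edgeR). The change on mixing in WT cells was -0.06 on the log2 scale with a 95% interval of -1.69 to 1.57.

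Hnf4a (chromosome 2, 163506808 to 163572910, plus strand), the nuclear receptor that holds enterocyte genes open, was the only member whose fall was called in both cultures in every fit that left out a library. Pure WT cells had 321.2 CPM in A01 and 331.6 CPM in A05, and mixed WT cells had 367.0 CPM in A02 and 641.1 CPM in A06. Pure cancer cells had 47.2 CPM in A03 and 35.9 CPM in A07, and mixed cancer cells had 34.0 CPM in A04 and 5.19 CPM in A08, the last from 1 read. Every cancer library was thus far below every WT library, and some Hnf4a reads were found in all 4. The log2 fold change was -2.99 ± 0.60 in pure cultures (adjusted p = 0.00146, edgeR), a fold of 7.97 with a 95% interval of 3.39 to 18.8. In mixed cultures it was -4.31 ± 0.60 (adjusted p = 3.10e-05, edgeR), a fold of 19.8 with an interval of 8.35 to 46.9. Both calls held in all 8 fits that each left out 1 library, with adjusted p-values up to 0.0162 in pure and up to 0.0014 in mixed cultures. The antisense gene Hnf4aos overlaps the gene body of Hnf4a and not its 3' end.

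Hnf4g (chromosome 3, 3508030 to 3658052, plus strand), the partner of Hnf4a on enterocyte enhancers, had 27 reads (24.7 CPM) in A01 and 34 reads (19.1 CPM) in A05. Mixed WT cells had 1 read in A02 (13.1 CPM) and 3 reads in A06 (6.80 CPM), and none of the 4 cancer libraries had a read. The pooled level was at least 3.71-fold lower in pure cancer than in pure WT cells and at least 13.7-fold lower in mixed cancer than in mixed WT cells, against 3 reads over the group. The mixed WT level rests on 4 reads, and the exact 95% counting interval allows a difference as small as 6.76-fold there and 2.93-fold in pure cultures. In a fit without the filter the adjusted p was 0.0757 in pure and 0.0585 in mixed cultures (edgeR).

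Gata4 (chromosome 14, 63198922 to 63271692, minus strand), the zinc-finger factor of the proximal small intestine, had 81.5 CPM in A01 and 114.7 CPM in A05. Mixed WT cells had 52.4 CPM in A02 and 61.2 CPM in A06. Pure cancer cells had 0 reads in A03 and 18.0 CPM in A07, from 6 reads, and mixed cancer cells had 27.4 CPM in A04 and 20.7 CPM in A08. The order of the groups was pure WT, mixed WT, mixed cancer and pure cancer, with no overlap between WT and cancer libraries. In pure cultures Gata4 fell in cancer cells with a log2 fold change of -3.19 ± 0.85 (SE, adjusted p = 0.0162, edgeR), a fold of 9.11 with a 95% interval of 2.69 to 30.9. That adjusted p was 0.0575 without A01, 0.0942 without A03 and 0.165 without A05. In mixed cultures the log2 fold change of -1.20 (interval -2.79 to 0.39) did not pass the test (adjusted p = 0.489, edgeR), and the difference of 1.99 between the pure and the mixed comparison did not pass either (adjusted p = 0.773, edgeR).

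Gata6 (chromosome 18, 11052064 to 11085635, plus strand), which acts in crypt cell proliferation and along the whole small intestine, was low in every library. Pure WT cells had 14.6 CPM in A01 and 30.4 CPM in A05, and mixed WT cells had 13.1 CPM in A02, from 1 read, and 40.8 CPM in A06. Pure cancer cells had 1 read in A03 (5.25 CPM) and none in A07, and mixed cancer cells had 4 reads in A04 (0.783 CPM) and none in A08. The WT libraries lay above the cancer libraries, but the shallow cancer libraries could not have shown a low level. In mixed cultures the log2 fold change was -5.25 ± 1.36 (SE, adjusted p = 0.0169, edgeR), and the call was lost without A01 (adjusted p = 0.0568), A05 (0.088), A04 (0.321) or A06 (0.4), all with edgeR. In pure cultures the ratio of cancer to WT was 0.0782, with an exact 95% counting interval of 0.00195 to 0.45, since the pure cancer level rests on 1 read, and the comparison did not pass the test (adjusted p = 0.185, edgeR).

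**Figure D2:**
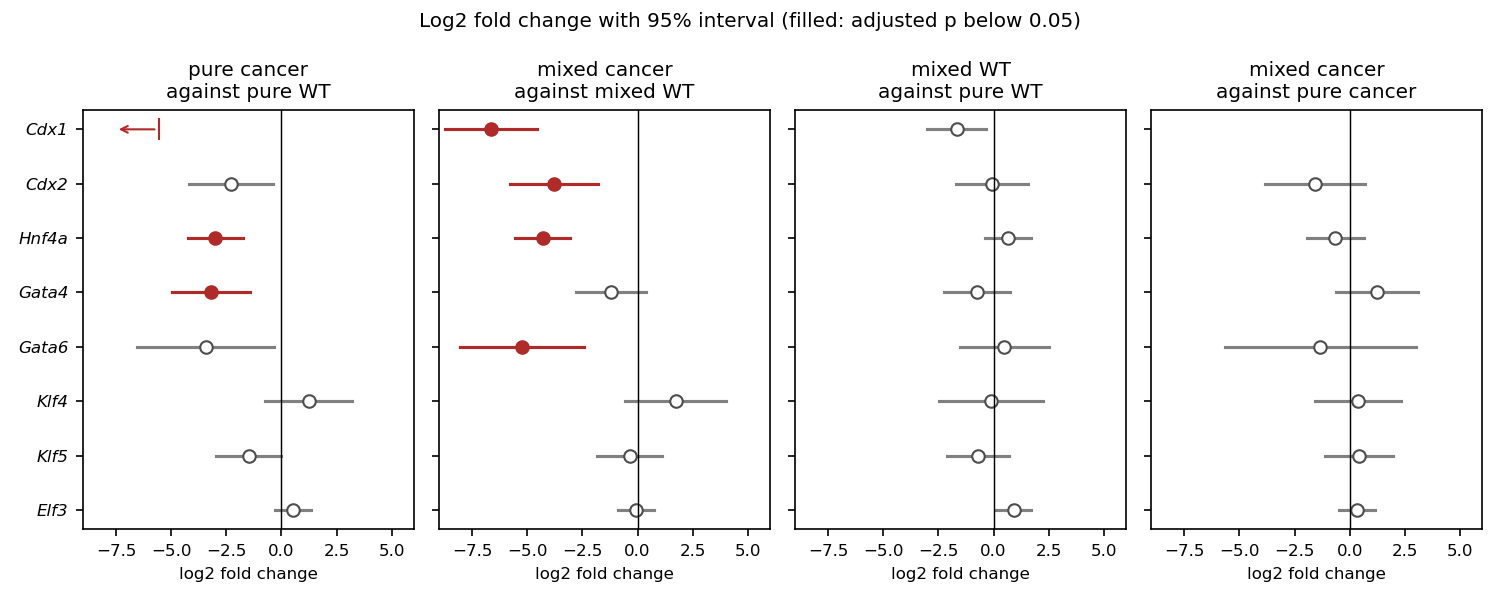
Log2 fold changes with 95% intervals for the 8 tested factors in 4 comparisons (edgeR). Filled red points passed the test and open points did not, and the Cdx1 arrow starts at the limit set by 3 reads, 47.4-fold lower. No factor passed in the panels on mixing, where Cdx1 is left out for cancer cells because it had 0 reads in the pure group.

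Klf4 (chromosome 4, 55527143 to 55532466, minus strand), a zinc-finger factor of differentiated epithelium, ran the other way at low counts. It had 4.58 CPM in A01, 14.1 in A05, 0 in A02 and 11.3 in A06. Cancer cells had 21.0 CPM in A03, 23.9 in A07, 28.8 in A04 and 31.1 in A08, between 4 and 147 reads. All cancer libraries were above all WT libraries. The log2 fold change was 1.23 ± 0.96 (SE) in pure and 1.73 ± 1.11 in mixed cultures, and neither passed the test (adjusted p = 0.522 and 0.489, edgeR).

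Klf5 (chromosome 14, 99298691 to 99315036, plus strand), a factor of dividing crypt cells, had 79.6 CPM in A01 and 120.3 in A05, and 26.2 in A02 and 79.3 in A06. Pure cancer cells had 57.7 CPM in A03 and 18.0 CPM in A07, and the mixed cancer library A04 had 41.9 CPM and A08 had 57.1 CPM. Pure WT cells were the highest group, and the other 3 groups overlapped. The log2 fold change in cancer cells was -1.49 (95% interval -2.97 to -0.01) in pure cultures and -0.35 (-1.84 to 1.13) in mixed cultures, and neither passed the test (adjusted p = 0.24 and 0.883, edgeR). On barcode counts the pure comparison passed it (adjusted p = 0.0199, edgeR).

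Elf3 (chromosome 1, 135253575 to 135258568, minus strand), the epithelial ETS factor, had between 152 and 8999 reads in a library and the narrowest intervals. Pure WT cells had 1383 CPM in A01 and 1045 CPM in A05. Mixed WT cells had 1992 CPM in A02 and 2542 CPM in A06. The pure cancer library A03 had 1648 CPM and A07 had 1814 CPM, and of the mixed cancer libraries A04 had 1761 CPM and A08 had 2578 CPM. Cancer and WT libraries overlapped, and the pure WT libraries were the lowest. Against WT the log2 fold change in cancer cells was 0.51 in pure cultures, with a 95% interval of -0.29 to 1.32 (adjusted p = 0.51, edgeR). In mixed cultures it was -0.07, with an interval of -0.88 to 0.74 (adjusted p = 0.967, edgeR), so a change beyond 1.84-fold in either direction lay outside the interval there.

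Each mixed group was compared with its pure group to see whether contact with the other cells changed these factors. In WT cells none of the 8 tested members passed the test and 2 had an unadjusted p under 0.05 (edgeR), Cdx1 at a log2 fold change of -1.67 and Elf3 at 0.91 (interval 0.09 to 1.72, adjusted p = 0.428, edgeR). DESeq2 also called 0 and had 2 at an unadjusted p under 0.05. Among all tested genes 0.741% were called in that comparison. In cancer cells none of 8 members passed it, none had an unadjusted p under 0.05, and DESeq2 called 0, where 0% of all tested genes were called. Between pure and mixed cancer cells the intervals of Hnf4a (-1.95 to 0.65), Klf5 (-1.13 to 1.97) and Elf3 (-0.48 to 1.13) were the narrowest, and those of Cdx2 (-3.83 to 0.69) and Gata6 (-5.66 to 3.02) left room for large changes. The test of whether WT and cancer cells responded differently to mixing called 0.076% of all genes and none of the members, with the smallest adjusted p at 0.773 (edgeR), none at an unadjusted p under 0.05, and none by DESeq2.

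Since no member passed the test on mixing, cancer and WT cells were also compared over both cultures, a contrast chosen after the data had been seen. In it 5 of 8 members fell and none rose, where 7.37% of all tested genes fell. These were Cdx1, Cdx2 (log2 fold change -3.04 ± 0.66 SE, adjusted p = 0.00184, edgeR), Hnf4a (-3.65 ± 0.42, adjusted p = 7.75e-07, edgeR), Gata4 (-2.19 ± 0.58, adjusted p = 0.0098, edgeR) and Gata6 (-4.35 ± 0.99, adjusted p = 0.00274, edgeR). Klf4 (1.48, adjusted p = 0.217, edgeR), Klf5 (-0.92, adjusted p = 0.282, edgeR) and Elf3 (0.22, adjusted p = 0.692, edgeR) did not pass. In this contrast too Cdx1 and Gata6 had little room to rise.

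Intestinal differentiation genes, many of them known targets of CDX and HNF4 factors, were read from a list of 31, of which 30 had a row and 21 were tested. In pure cultures 17 of 21 fell in cancer cells and none rose, where 4.84% of all tested genes fell. In mixed cultures 19 of 21 fell and none rose, where 4.41% of all tested genes fell. List genes without a read in any cancer library, such as Myo1a, passed the filter on low counts through WT libraries alone, so they could not rise. In pure cancer cells 12 of the 21 had no read, and in mixed cancer cells 4. With such genes at the 3-read limit the median log2 ratio over the 21 was -3.59 in pure and -6.36 in mixed cultures. That limit is 5.72 CPM in pure and 0.566 CPM in mixed cancer cells, so these medians do not rank the cultures. The medians of the fitted log2 fold changes had the opposite order, -8.68 in pure and -6.80 in mixed cultures. Alpi, the alkaline phosphatase of the brush border, had 450 CPM in A01 and 376 CPM in A05. It had 10.5 CPM in A03 and 2.99 CPM in A07, from 2 reads and 1 read, and in mixed cultures it was 799.6 and 917.5 CPM in WT against 1.96 and 0 CPM in cancer cells. Its log2 fold change was -6.11 ± 0.70 (SE, adjusted p = 2.70e-06, edgeR) in pure and -8.80 ± 0.72 (adjusted p = 1.23e-08, edgeR) in mixed cultures. Lgals4, a lectin of lipid rafts and apical transport, kept a clear level in cancer cells, with 167.9 CPM in A03 and 206.5 in A07 against 2757 in A01 and 2287 in A05 (log2 fold change -3.74 ± 0.49, adjusted p = 1.41e-05, edgeR). Myo1a, the brush border myosin, had no read in any cancer library and 78.6 to 134.3 CPM in the WT libraries. Guca2a, the guanylin precursor, had no read in A03 and A07, against 272.7 and 261.9 CPM in A01 and A05. Gpa33, a surface glycoprotein regarded as a CDX target, and Vil1, the villin of microvilli, were the 2 genes of the list that passed the test in neither culture, and they are named here after their values were seen. Gpa33 had 68.2 to 404.6 CPM in the cancer libraries and 367.0 to 638.9 CPM in the WT libraries. None of the 21 genes passed the test for mixing in WT or in cancer cells.

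**Figure D3:**
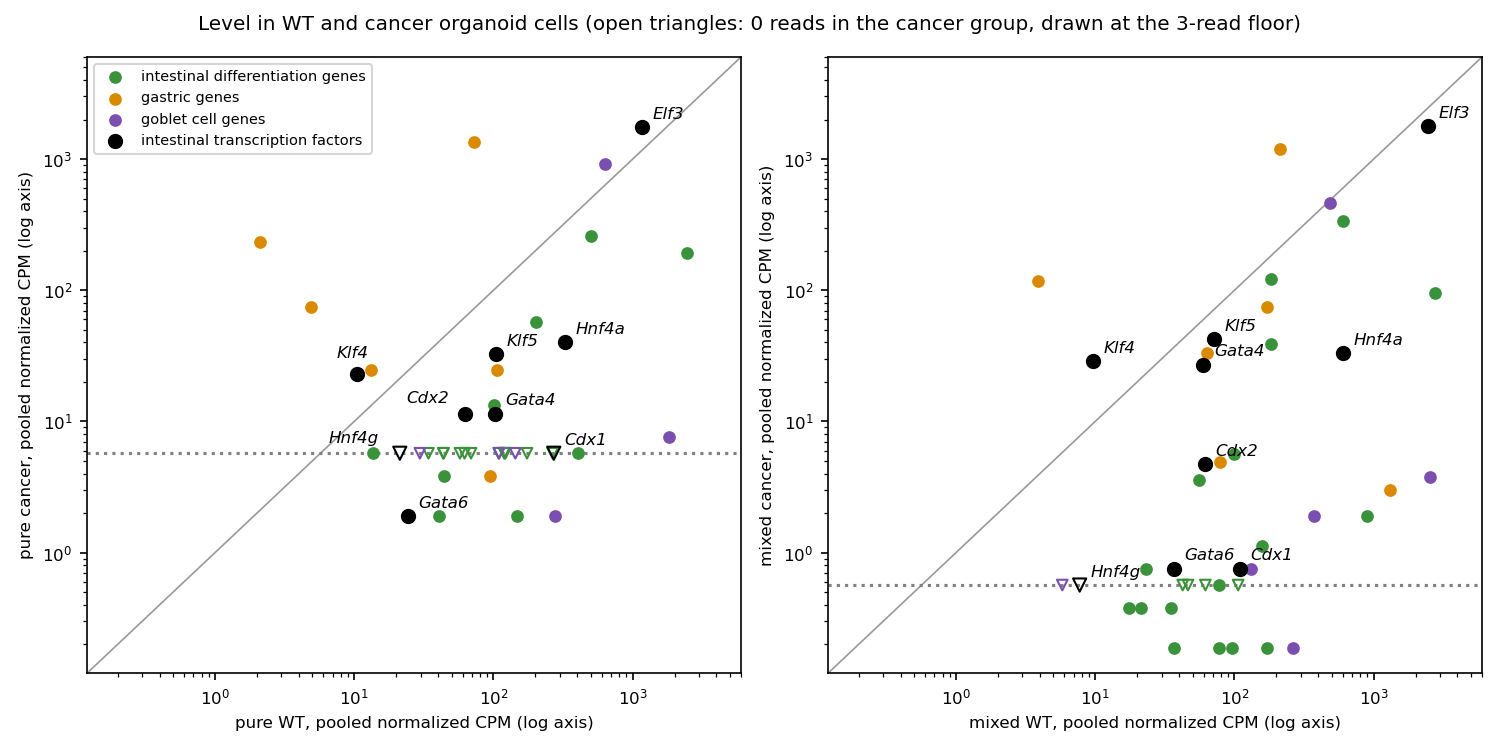
Pooled normalized CPM (log axes) in WT against cancer cells of pure cultures (left) and mixed cultures (right), for the 9 factors (black) and the tested genes of 3 lists. Points below the diagonal are lower in cancer cells, open triangles have 0 reads in the cancer group and sit at the dotted 3-read limit (5.72 CPM left, 0.566 CPM right). Elf3 lies near the diagonal, Klf4 above it, and Hnf4a and the CDX factors below it with most of the differentiation genes.

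Secretory and gastric genes were read in the same way, because the intestinal factors are known to hold stomach genes down and to act in goblet cells. Of 10 goblet cell gene symbols 6 were tested, and 5 fell in pure and 4 in mixed cancer cells, with none that rose. Of these 6, 3 had no read in pure and 1 had none in mixed cancer cells. Atoh1, without a read in any cancer library, passed the filter on low counts through WT libraries alone, so it could not rise. Over all tested genes 4.84% fell in pure and 4.41% in mixed cultures. Spink4, named after its values were seen, passed the test in neither culture. It had 620.5 and 644.7 CPM in pure WT against 1102 and 805.1 CPM in pure cancer cells. In mixed cultures it had 589.9 and 469.0 CPM in WT against 449.1 and 783.3 CPM in cancer cells. Tff3, a mucin-associated trefoil peptide, had 1883 and 1798 CPM in pure WT and 5.25 and 8.98 CPM in pure cancer cells (log2 fold change -7.91 ± 0.71, adjusted p = 9.30e-08, edgeR). Of 16 gastric gene symbols 12 had a row, and Sox2, Muc5ac, Muc6 and Cblif did not. Cblif was also listed under its older symbol Gif, which had a row with 1 read in A05. Of the 6 tested, 3 rose and 1 fell in pure, and 2 rose and 2 fell in mixed cancer cells. Over all tested genes 5.11% rose in pure and 2.01% in mixed cultures. Tff1, a trefoil peptide of gastric surface mucus, had 84.2 CPM in A01 and 64.6 in A05, against 1564 in A03 and 1245 in A07 (log2 fold change 4.24 ± 0.50, adjusted p = 3.81e-06, edgeR). Tff2, the trefoil peptide of gastric gland mucus, had 1.83 CPM in A01 and 2.25 in A05, against 94.5 in A03 and 311.3 in A07 (log2 fold change 6.57 ± 0.84, adjusted p = 1.10e-05, edgeR). Ctse, the aspartic protease cathepsin E, rose in pure cancer cells (log2 fold change 3.65 ± 0.81, adjusted p = 0.0037, edgeR) and also in mixed against pure WT cells (4.96 ± 0.82, adjusted p = 0.00359, edgeR), and Anxa10, an annexin of gastric mucosa, rose in mixed against pure WT cells as well (3.69 ± 0.51, adjusted p = 0.00043, edgeR). Against WT cells of the same culture Anxa10 was lower in cancer cells, by a log2 fold change of -4.70 in pure and of -8.80 in mixed cultures, the latter against the raised level of the mixed WT cells. The gastrokine Gkn3 was called lower in mixed cancer cells, with 4.70 CPM in A04 and 10.4 in A08 against 0 in A02 and 92.9 in A06. The tested genes of this list thus did not move together. The gastrokines Gkn1 and Gkn2 and Cldn18, other gastric genes, had at most 2 reads in any library and cannot show a direction. None of the 5 genes of ileal bile acid handling, such as Fgf15 and Slc51a, was tested, and their summed level was at most 20.4 CPM.

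Among 28 other epithelial transcription factors, 15 were tested. In pure cancer cells 2 fell and 2 rose, while 3 fell and none rose in mixed cancer cells. Over all tested genes 4.84% fell and 5.11% rose in pure, and 4.41% fell and 2.01% rose in mixed cultures. None of the 15 passed the test on mixing in WT or in cancer cells. Vdr, the vitamin D receptor, had 168.4 CPM in A01 and 356.3 in A05, and 0 reads in A03 and A07, at least 49.8-fold lower by the 3-read limit and 40.4-fold by the exact 95% counting interval (adjusted p = 0.000166, edgeR). It had 0 reads in A02 and 92.9 CPM in A06, and 3 reads in A04 and 1 read in A08 (log2 fold change -5.99 ± 1.16, adjusted p = 0.00143, edgeR), and this change turned its sign without A06. Nr1h4, the bile acid receptor, had no read in any cancer library, so it could not rise. Pparg, a lipid-sensing receptor, had 104.9 CPM in A02 and 81.6 in A06 against 10.8 CPM in A04 and 0 in A08 (log2 fold change -3.42 ± 0.90, adjusted p = 0.0184, edgeR). Ascl2, a Wnt target of stem cells, had 145.5 CPM in A01 and 132.1 in A05 against 36.7 in A03 and 32.9 in A07 (log2 fold change -2.00 ± 0.63, adjusted p = 0.0437, edgeR). In mixed cultures Ascl2 had the opposite order, with 26.2 and 43.0 CPM in WT and 77.9 and 88.2 CPM in cancer cells, where the log2 fold change of 1.11 did not pass the test (adjusted p = 0.438, edgeR), nor did the difference of 3.11 between the pure and the mixed comparison (adjusted p = 0.357, edgeR). Of the family of Klf4 and Klf5, Klf3 (log2 fold change 2.79 ± 0.70, adjusted p = 0.0108, edgeR) and Klf6 (2.82 ± 0.84, adjusted p = 0.0315, edgeR) rose in pure cancer cells. Foxa1 and Sox9, named after their values were seen as factors that did not pass, had pooled levels of 88.4 and 116 CPM in pure WT and 82.0 and 95.3 CPM in pure cancer cells.

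The targeted genes Trp53 and Apc were read as a check of the labels. Trp53 had 178.5 CPM in A01 and 323.7 in A05 against 5.25 in A03, from 1 read, and 71.8 in A07. It fell in pure cancer cells (log2 fold change -2.56 ± 0.77, adjusted p = 0.0323, edgeR). In mixed cancer against mixed WT cells Trp53 did not pass the test, so this check was met in pure cultures only. Apc had between 0 and 22 reads in a library and was not tested. Reads at the 3' end do not show whether the floxed exons or the point mutations are present. None of 15 cell cycle genes passed the test in any of the 5 comparisons, although their median log2 fold change was 1.22 in mixed cancer against mixed WT cells, where that of all tested genes was 0.12.

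Genes with the pattern most like each tested member were named by the smallest root-mean-square difference of centered log2 CPM over the 8 libraries, among 2745 genes with a mean of at least 50 reads, as a description that rests on the same libraries and shares their depth. Cyp2d26, Clps and Smoc2 followed Cdx1 most closely, with differences of 0.56, 0.70 and 0.75. Gstm2, Hopx and Oit1 were the 3 nearest to both Cdx2 and Hnf4a, at 0.63, 0.69 and 0.73 from Cdx2 and at 0.62, 0.63 and 0.51 from Hnf4a. Mboat7, Itfg3 and Ints9 were nearest to Gata4 (0.46 to 0.54), and Gmds, Mgst3 and Acaa2 to Gata6 (0.46 to 0.65). Rtn4 stood out near Klf4, at 0.26, followed by Zfp503 and Jund, while Acp6, Tmbim4 and Parl were nearest to Klf5 (0.34 to 0.35) and Tm2d1, Mapk3 and Dnm2 to Elf3 (0.11 to 0.22). Like Cdx1, the genes Cyp2d26, Clps and Smoc2 had 0 reads in the pure cancer libraries. In the mixed cancer libraries together Cyp2d26 and Clps had 1 read each, and Cdx1 and Smoc2 had 4 reads each.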

How the data were processed

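Bulk RNA from sorted cells of 4 groups, with 2 libraries each, was sequenced with CEL-Seq. Per the labels and the study's methods, the authors aligned read 2 to the mm10 RefSeq transcriptome with BWA, discarded reads that mapped equally well to several places, counted reads per gene with featureCounts and tested them with DESeq2 1.22.2. The read counts and barcode counts per gene were used as deposited by the authors, without normalization. Barcode counts level off at 256, which 152 genes reached, so read counts were the main values. The deposited transcript estimates and the authors' own table of fold changes and p-values were not used. The rows of a spike-in and of eGFP, with 1 read in all, were left out.

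The 9 members, the gene lists and the tests were chosen with earlier results of these data known. Groups were taken from the labels and no pairs were formed. Reads were fitted with edgeR 4.0.16 in R 4.3.3 (quasi-likelihood test, all 8 libraries, TMM factors, filterByExpr at a minimum count of 10, Benjamini-Hochberg over 5264 genes), with an adjusted p under 0.05 as the threshold. The calls were tested on simulated data. The SE is the absolute log2 fold change over the square root of F. Where a group had 0 reads, the fold is against 3 reads over its pooled libraries, and ratios with few reads carry exact binomial intervals. Depth was 73109 to 4733121 reads, and it sets the precision of low genes. Genes named in the text are the members, list genes called in a comparison (up to 5 per list), and the 3 genes most like each tested member, with the exceptions stated beside them. Positions came from GENCODE vM21 on GRCm38. In the last 500 bases of each member no window of 50 bases was shared with another gene.

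Alternatives were barcode counts, median-of-ratios factors, no filter, a minimum count of 50, only the compared libraries, DESeq2 1.42.0, each library left out in turn and, added after the data were seen, cancer against WT averaged over both cultures. Fits without a library, and fits of only the compared libraries, kept the same 5264 genes. A group left with 1 library was assumed to vary like the others. A gene and an engineered allele are not reported here.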

Additional observations from a re-analysis of the deposited data

How the results depend on the processing

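Depth limits the lower members most, since 3 reads are 39.3 CPM in A02, above Cdx1, Gata6, Hnf4g, Klf4 and Klf5 there. No paired analysis was run because the labels name wells and give no pairs or replicate numbers. Wells A01 to A04 and A05 to A08 hold the 4 groups in the same order, and a fit blocked by these sets was not run. Where causes are not given below, the cause was not tested.

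The count of 3 members that fell in pure cancer cells was 5 on barcode counts, which added Cdx2 and Klf5, and 5 in the contrast over both cultures, which added Cdx2 and Gata6. It was 2 at a minimum count of 50, where Gata4 was no longer tested, and ranged from 2 to 3 when a library was left out. The count of 4 in mixed cultures was 3 on barcode counts, where Gata6 was not tested, and 2 at a minimum count of 50, where Cdx2 and Gata6 were not tested, and it ranged from 1 to 4 when a library was left out. The counts of 0 for both changes on mixing and for their difference stayed at 0 under all alternatives run. For Cdx1 and Hnf4a in pure cultures and Hnf4a in mixed cultures, the call held under every alternative in which they were tested.

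Changes of sign occurred only in values that had not passed the test, apart from Cd68, Gkn3 and Vdr. For Cdx2 in mixed against pure WT cells, the log2 fold change was 0.20 on barcode counts, 0.039 with median-of-ratios factors and 0.012 with DESeq2, and -0.24 to 0.032 when a library was left out. Elf3 in mixed against pure cancer cells was -0.42 on barcode counts, where it had the top value of 256 in A04. With a library left out, the log2 fold changes in mixed against pure WT cells ran from -0.79 to 1.06 for Gata6 and from -6.61 to 0.89 for Klf4. In mixed against pure cancer cells they ran from -5.87 to 0.50 for Cdx2, from -3.34 to 3.10 for Gata6 and from -0.21 to 1.40 for Klf5. In mixed cancer against mixed WT cells they ran from -0.74 to 0.85 for Klf5, from -0.40 to 0.13 for Elf3, from -4.06 to 5.82 for Gkn3 and from -6.64 to 3.24 for Vdr, with the positive ends of Gkn3 and Vdr in the fit without A06, which leaves only A02 and its 0 reads. Cd68 in pure cultures ran from -3.03 to 6.43, with the lower end without A07. The difference between the changes on mixing ran from -5.84 to 0.56 for Cdx2, from -3.86 to 2.59 for Gata6 and from -0.49 to 6.99 for Klf4.

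Over all genes, mixed against pure WT cells gave 39 calls, 93 on barcode counts, 68 without a filter, 98 with only the compared libraries and 69 with DESeq2, and between 1 and 96 when a library was left out. Pure cancer against pure WT cells gave 524 calls and 232 at a minimum count of 50, and mixed cultures gave 338 and 151. The test of the difference gave 4 calls, 23 on barcode counts, 10 without a filter and 21 with DESeq2. With median-of-ratios factors the median log2 fold change of all tested genes in mixed against pure WT cells moved from -0.10 to -0.00. Of the 36 group levels of the members, 31 moved by more than 1 SD on barcode counts, whose library totals are other sums.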
